A study of Homo sapiens with 32 samples.

Results

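A set of 10 genes, called the members here, was followed across Ewing sarcoma cell lines: the surface proteins NT5E, ENG, THY1, CD44, ALCAM and MCAM, the matrix proteins TGFBI, VCAN and LOX, and the intermediate filament protein VIM. They are markers of mesenchymal stem cells and were chosen by name, and all 10 were found among the 28278 gene symbols of the count tables and among the 60199 Ensembl genes of the knockdown table. The question was whether the other markers follow TGFBI and NT5E, which were picked because they are low in cells without EZH2 or SUZ12. The values of TGFBI and NT5E in those cells are therefore given as a description, with no test.

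NT5E (CD73), ENG (CD105) and THY1 (CD90) are the surface proteins by which mesenchymal stem cells are usually defined, with CD44, ALCAM (CD166) and MCAM (CD146) often added. Ewing sarcoma is driven by the fusion factor EWS::FLI1, which represses many genes of the mesenchymal programme, and a mesenchymal stem cell is one of the proposed cells of origin. STAG2 and STAG1 are alternative subunits of cohesin, the ring complex that shapes chromatin loops. EZH2 is the catalytic subunit and SUZ12 a core subunit of PRC2, which places the repressive mark H3K27me3 on chromatin.

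RNA was sequenced from A673 cells, an Ewing sarcoma line, in 4 experiments, and from the lines SK-N-MC and A4573. All KO clones of A673 were made from 1 clone with a doxycycline-inducible Cas9 in the AAVS1 locus and no edit of the studied genes (genotype iCas9, called WT clone), and the unmodified line (genotype WT) is called parental. Experiment 1 held 2 WT clone libraries, 1 parental library and 2 STAG2 KO libraries (iCas9+STAG2ko); experiment 2 held 2 WT clone, 1 parental, 3 STAG2 KO, 3 EZH2 KO (iCas9+EZH2ko) and 3 SUZ12 KO libraries (iCas9+SUZ12ko); experiment 3 held 1 WT clone, 1 parental and 3 STAG1 KO libraries (iCas9+STAG1ko). In experiment 4, A673 cells of genotype WT were mock transfected (siC, 3 libraries) or transfected with an siRNA against STAG2 (siSTAG2, 3 libraries). The pairs of 1 library per arm were SK-N-MC iCas9 cells with or without STAG2 KO, and A4573 iCas9 cells, which lack STAG2, with or without a knock-in (KI) that restores it. For the A4573 KI the paper describes a transfected Cas9 plasmid instead of an inducible Cas9. The labels give no dose or time for any group, each KO library came from another clone as labelled, and where nothing separates cultures the p-values measure only the spread between these libraries.

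Library totals were 15734628 to 20663679 counts in the 22 libraries of A673 clones, 29322507 to 32261248 counts in the 4 libraries of the pairs, and 6852340 to 8184632 recovered reads in the 6 knockdown libraries. Levels are normalised CPM, the counts scaled to a common library size by TMM over the 26 count libraries, and deposited normalised reads in the knockdown. STAG2 was at 43.8 to 70.3 CPM in 4 of the 5 STAG2 KO libraries and at 250 to 349 CPM in the 6 controls of experiments 1 and 2. The library labelled STAG2 KO 24 of experiment 1 kept 189 CPM. STAG2 was at 181 CPM in SK-N-MC STAG2 KO against 286 CPM in its WT, and at 31.8 CPM in A4573 WT against 83.4 CPM with the KI. The column numbers of experiment 1 (5 and 24) and of STAG1 KO (1, 5 and 7) are not the clone numbers of the labels, and the 5 of experiment 1 is not known to be clone 5 of experiment 2. The library labelled STAG1 KO 1 held 62.1 CPM of STAG1, between the 57.5 and 68.7 CPM of its controls, while the other STAG1 KO libraries held 15.1 and 33.0 CPM. EZH2 was at 28.6 to 56.2 CPM in EZH2 KO (166.7 to 190 in controls), SUZ12 at 11.2 to 20.8 CPM in SUZ12 KO (58.3 to 64.8 in controls), and siSTAG2 left 144 to 180 normalised reads of STAG2 against 992 to 1090 in siC. STAG2 KO clone 5 of experiment 2 stood apart from its group, with a mean chi-square per gene of 113 and 140 against the other clones, which differed from each other by 25.7. Between the WT clone pair of experiment 1 this value was 1.33, close to the 1 that sampling noise gives, and between the pair of experiment 2 it was 9.41.

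The markers of the cell type were checked beside the members. Of 14 Ewing sarcoma markers, 13 were above 3 counts in A673 control libraries, and their summed level was 3391 to 6010 CPM. The exception was CD99, at most 3 counts in every count library and yet at 6423 ± 417 normalised reads (SD, n = 3) in siC cells. The leukocyte gene PTPRC and the class II genes HLA-DRA and HLA-DRB1, which mesenchymal stem cells lack, held at most 3 counts in each of the 8 A673 controls. The summed level of the list of 8 such markers was 8.88 to 19.2 CPM in controls, 53.0 to 64.5 CPM in EZH2 KO and 44.7 to 68.1 CPM in SUZ12 KO, and 8 epithelial markers summed to 149 to 406, 691 to 979 and 429 to 1233 CPM. Not all 8 were silent. CD79A had a mean of 11.4 CPM in the controls of experiment 2, 39.4 in EZH2 KO and 35.5 in SUZ12 KO. ITGAM rose from 0.434 to 14.2 and 13.1 CPM. The epithelial KRT8 rose from 30.8 to 401 and 496 CPM, while CDH1 and GRHL2 held at most 3 counts in each control and EZH2 KO library. VWF, TEK and TIE1 of 6 endothelial markers held at most 3 counts in each control, with a summed level of 0.630 to 1.57 CPM in controls, and of up to 6.05 CPM in EZH2 KO and 9.53 CPM in SUZ12 KO. Their part in the differences of the members between PRC2 KO and control cells was not tested. In bulk RNA, fewer cells of a type and less RNA per cell cannot be told apart.

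Per kilobase of exon, the A673 controls carried mostly VIM, with a median of 264 CPM per kb over the 8 libraries and a range of 202 to 402. THY1 (18.6), ALCAM (17.1), ENG (13.6), NT5E (10.98) and TGFBI (8.46) followed by median CPM per kb, then MCAM (4.37), LOX (2.68), CD44 (0.624) and VCAN (0.0153). Below VIM, the ranges of neighbours in that order overlapped down to CD44, and VCAN, at 0 to 0.135 CPM per kb, lay below the 0.174 to 3.59 of CD44. The markers were not equally steady among unedited cells. ENG spanned only 12.4 to 15.9 CPM per kb in the 8 controls, whereas NT5E spanned 4.43 to 34.8 and TGFBI 2.55 to 34.5.

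The windows upstream of the start site are shown for ALCAM, ENG and VIM, which were lower together in SUZ12 KO, and for TGFBI, which was lower in STAG2 KO. The 4 windows hold the 250 bases before the RefSeq start on GRCh38.p14: chr3:105366659-105366908 (plus strand) for ALCAM, chr9:127854659-127854908 (minus strand) for ENG, chr5:136028738-136028987 (plus strand) for TGFBI and chr10:17227991-17228240 (plus strand) for VIM. Capitals mark CG dinucleotides, and the sequences read 5′ to 3′ towards the gene.
ALCAM: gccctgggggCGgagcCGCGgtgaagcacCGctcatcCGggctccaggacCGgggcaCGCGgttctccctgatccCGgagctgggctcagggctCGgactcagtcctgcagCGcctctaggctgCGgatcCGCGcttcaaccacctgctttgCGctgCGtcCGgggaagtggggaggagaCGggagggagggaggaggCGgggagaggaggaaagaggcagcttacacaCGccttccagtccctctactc
ENG: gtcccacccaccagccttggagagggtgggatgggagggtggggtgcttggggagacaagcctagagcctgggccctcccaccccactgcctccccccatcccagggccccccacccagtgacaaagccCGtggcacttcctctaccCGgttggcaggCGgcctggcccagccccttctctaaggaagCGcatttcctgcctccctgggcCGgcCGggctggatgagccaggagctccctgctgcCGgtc
TGFBI: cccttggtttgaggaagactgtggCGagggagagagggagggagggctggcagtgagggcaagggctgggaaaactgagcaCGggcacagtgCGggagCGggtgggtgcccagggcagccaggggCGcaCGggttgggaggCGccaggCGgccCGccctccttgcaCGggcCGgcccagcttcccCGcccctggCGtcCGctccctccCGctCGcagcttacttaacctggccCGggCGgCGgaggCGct
VIM: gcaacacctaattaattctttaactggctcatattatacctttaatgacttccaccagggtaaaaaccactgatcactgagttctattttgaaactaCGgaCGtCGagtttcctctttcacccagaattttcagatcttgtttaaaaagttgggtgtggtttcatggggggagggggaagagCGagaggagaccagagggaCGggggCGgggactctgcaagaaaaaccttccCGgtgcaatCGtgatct
The windows of ALCAM and TGFBI held 20 CG dinucleotides each, VIM 8 and ENG 7, beside a median of 11 over 35116 RefSeq windows of the same length. In 9 of the members with an entry, neither strand held GGAAGGAA, a pair of the GGAA units that FLI1 binds, or the AP-1 motif TGANTCA. GGAAGGAA was in 3.06% and TGANTCA in 6.57% of all windows, and GGAA alone in 92.7%.

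In STAG2 KO cells the members moved in opposite directions. TGFBI, a matrix protein induced by TGF-beta that binds integrins, fell almost to nothing, while ALCAM, an adhesion molecule that binds itself and CD6, rose in every clone of both experiments. ENG, the co-receptor for TGF-beta and BMP ligands, and THY1, a GPI-anchored surface glycoprotein, rose less. Of the 9 members with enough counts to be tested, 3 were called higher, 1 lower and 5 were not called (edgeR quasi-likelihood test, adjusted p under 0.05). Over 13574 genes, 12.4% were called, 6.67% higher and 5.76% lower. The 1 called lower was TGFBI, which was picked against the controls of experiment 2 that are part of this fit. Its place in this count is therefore a description. The median log2 difference of the 9 members was -0.09, against 0.04 over all genes.

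TGFBI (chr5:136028988-136063818) lay between 19.7 and 97.3 CPM in the 6 STAG2-proficient libraries, with a median of 65.3. Without STAG2 it was at 1.51 and 0.239 CPM in experiment 1 (labelled 24 and 5) and 1.41, 1.5002 and 1.34 CPM in clones 2, 3 and 5 of experiment 2. Every KO library lay far below every control, including the one that kept STAG2 mRNA. The mean was 1.20 ± 0.542 CPM (SD, n = 5) against 58.3 ± 31.8 CPM (SD, n = 6), 48.6-fold lower, with a log2 fold change of -5.54 ± 0.59 (SE) and an adjusted p of 0.000255. This pooled value is a description, since the controls of experiment 2, against which TGFBI was picked, are among the 6. Experiment 1 shares no library with the PRC2 comparison in which TGFBI was picked. In experiment 1 alone the log2 fold change was -6.35 ± 0.54, with an adjusted p of 0.00364 (edgeR). TGFBI shares no exonic bases with another gene.

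ALCAM (chr3:105366909-105576900) lay between 83.0 and 137 CPM in the STAG2-proficient libraries, with a median of 118. Without STAG2 it was at 291 and 287 CPM in experiment 1 and 515, 271 and 477 CPM in clones 2, 3 and 5 of experiment 2. The groups did not overlap. ALCAM rose by 1.67 ± 0.23 on the log2 scale (adjusted p = 0.00093, edgeR), 3.29-fold between the means of 368 ± 118 (SD, n = 5) and 112 ± 23.5 CPM (SD, n = 6), and it was called in experiment 1 alone (1.26 ± 0.22, adjusted p = 0.0168) and in experiment 2 alone (1.959 ± 0.28, adjusted p = 0.0181).

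ENG (chr9:127815013-127854658) was at 47.4 to 61.1 CPM, with a median of 51.9, in STAG2-proficient cells, and at 146, 127, 98.6, 88.1 and 43.7 CPM in the KO libraries. Only clone 5 of experiment 2 was not above the controls, and its 43.7 CPM lay below them. THY1 (chr11:119415476-119424985) was at 118 to 192 CPM, with a median of 139, against 305, 295, 201, 228 and 154 CPM in the same KO order. Only clone 5 was not above the controls of THY1, and it lay within them. ENG rose by 0.89 ± 0.22 (adjusted p = 0.0223) and THY1 by 0.68 ± 0.19 (adjusted p = 0.0343) on the log2 scale (edgeR). The ENG call was lost on leaving out any of 8 of the 11 libraries (adjusted p = 0.0504 to 0.0740), all but WT clone 1, the parental library and STAG2 KO clone 5 of experiment 2, and the THY1 call on leaving out any of 9 (0.0664 to 0.101), all but that parental library and clone 5. In experiment 1 alone both were called (ENG 1.39 ± 0.11, adjusted p = 0.00316; THY1 1.22 ± 0.11, adjusted p = 0.00384), and in experiment 2 alone neither was (ENG 0.45 ± 0.28, adjusted p = 0.36; THY1 0.22 ± 0.18, adjusted p = 0.50). Of 9 members tested, 4 were higher and 2 lower in experiment 1 alone, with 25.9% of genes called there (12% higher, 13.9% lower), and 1 was higher (ALCAM) and 1 lower (TGFBI) in experiment 2 alone, with 3.69% called (1.83% higher, 1.86% lower). TGFBI was picked against the same 3 control libraries of experiment 2, so its count there is a description. When the WT clone pair of experiment 1, which differs by little more than sampling noise, was summed, the ENG (adjusted p = 0.0563) and THY1 (0.0807) calls over both experiments were lost and those of TGFBI and ALCAM were kept. In experiment 1 alone, summed in this way, ENG (adjusted p = 0.0197), THY1 (0.0252), ALCAM (0.0477), MCAM (0.0429) and TGFBI (0.0181) were called (edgeR).

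The rest of the surface markers and the matrix and filament markers did not pass the test in STAG2 KO. NT5E, the ecto-enzyme that makes adenosine from AMP (chr6:85449584-85495791), was at 5.35 and 12.1 CPM in the KO libraries 24 and 5 of experiment 1, below the 30.0 to 52.7 CPM of the controls there. In experiment 2 it was at 150, 36.9 and 3.53 CPM in clones 2, 3 and 5 against 65.0 to 158 CPM, so that clone 2 alone reached the controls. The log2 difference over both experiments was -1.53 ± 0.72 (adjusted p = 0.202). It was -2.35 ± 0.43 in experiment 1 alone (adjusted p = 0.0181, and 0.0545 with the WT clone libraries summed) and -2.50 ± 0.58 without clone 2 (adjusted p = 0.0228, edgeR). NT5E, like TGFBI, was picked against the controls of experiment 2, so its values from fits that hold them are a description. Experiment 1 alone shares no library with that pick. MCAM, an adhesion molecule of pericytes and endothelium (chr11:119308529-119321521), was at 22.8 to 52.5 CPM in controls, with a median of 40.4, and at 93.5, 63.0, 127, 92.3 and 23.5 CPM in the KO libraries in the same order. All but clone 5 were above every control, and clone 5 lay below the 50.1 to 52.5 CPM of the controls of its own experiment. The log2 difference of 1.01 ± 0.34 (adjusted p = 0.0763) became 1.27 ± 0.15 without clone 5 (adjusted p = 0.000208, edgeR).

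CD44, the main receptor of hyaluronan (chr11:35138882-35232402), was at 2.56 and 5.32 CPM in the KO libraries 24 and 5 of experiment 1, and at 47.0, 31.2 and 1.02 CPM in clones 2, 3 and 5 of experiment 2. The controls spanned 2.52 to 6.65 CPM in experiment 1 and 19.7 to 35.8 CPM in experiment 2, so that the KO libraries 24 and 5 lay within the controls of their experiment and the controls of the experiments did not overlap. LOX, which cross-links collagen and elastin, was at 2.21, 8.30, 42.6, 21.6 and 2.57 CPM in the KO libraries in the order above and at 10.8 to 35.8 CPM in controls. The CD44 log2 difference was -0.28 ± 0.64 (adjusted p = 0.841), that of LOX (chr5:122063195-122078413), -0.76 ± 0.60 (0.462), and that of VIM (chr10:17228241-17237593) -0.09 ± 0.29 (0.892, edgeR). Clone 5 was the lowest of the 3 STAG2 KO clones of experiment 2 in NT5E, CD44, LOX and VIM (499 CPM), and the highest in VCAN, at 5.62 CPM. VCAN, the large hyaluronan-binding proteoglycan versican (chr5:83471618-83582303), held at most 5 counts in each other library of the comparison and was not tested.

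**Figure D1:**
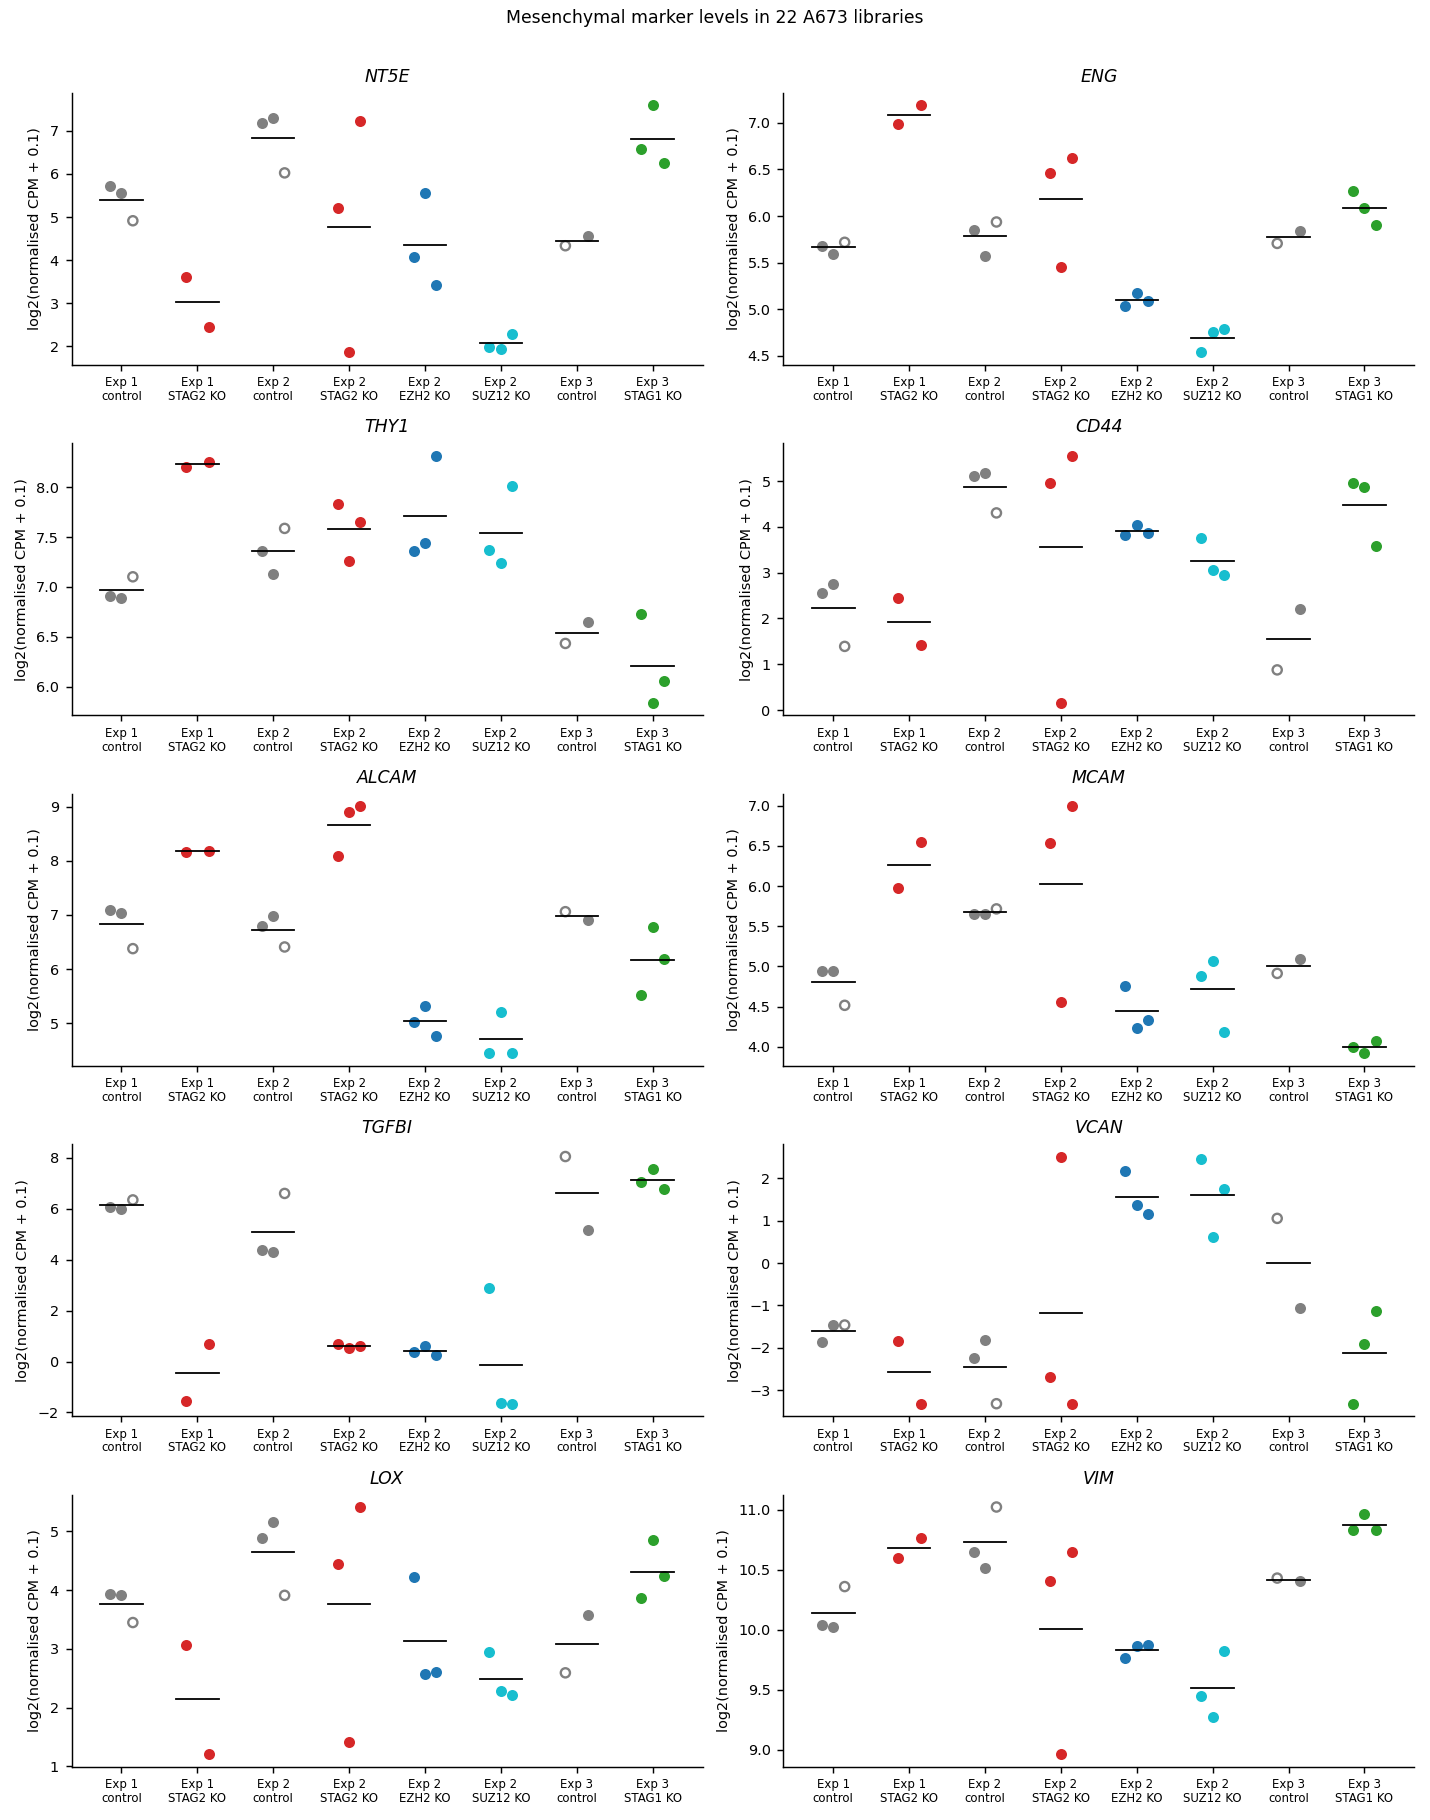
Level of each member in the 22 A673 libraries, as log2(normalised CPM + 0.1), by experiment and genotype; points are libraries, open circles the parental line, and black lines the group means of the plotted values. ALCAM sits above the controls in all 5 STAG2 KO libraries and below them in the EZH2 KO and SUZ12 KO libraries, and TGFBI lies below the controls of its experiment in STAG2 KO, EZH2 KO and SUZ12 KO.

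Whether the STAG2 KO effect differed between the experiments was tested as an interaction. No member was called, with 0% of 13574 genes called by edgeR, although 4150 genes had an unadjusted p under 0.05 and DESeq2 called 2222. The members with the largest difference between experiments relative to its error were THY1 (-0.99 ± 0.23, adjusted p = 0.0763) and ENG (-0.92 ± 0.35, adjusted p = 0.123), whose rise was smaller in experiment 2. THY1 was called by DESeq2 (-1.03, adjusted p = 0.00294), and by edgeR without clone 5 (adjusted p = 0.0376) or clone 2 (0.0445) of experiment 2.

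The knockdown of STAG2 moved these 4 members in the same directions as the KO. ALCAM was at 655, 638 and 616 normalised reads in siSTAG2 against 267, 279 and 291 in siC, a 2.28-fold rise of the mean. TGFBI was at 609, 620 and 652 against 929, 914 and 955, 1.49-fold lower. The groups did not overlap for either gene. With limma on log2(value + 1), ALCAM rose by 1.19 ± 0.08 (adjusted p = 6.7e-12), ENG by 0.53 ± 0.10 (adjusted p = 0.000284) and THY1 by 0.48 ± 0.06 (adjusted p = 1.3e-06). TGFBI fell by 0.57 on the same scale (SE 0.07, adjusted p = 2.4e-07), against -5.54 in the KO clones.

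Of the 8 members with a mean of at least 10 normalised reads, 3 were called higher and 3 lower, with 20.5% of 12060 genes called, 9.54% higher and 11% lower. The members' median log2 difference was -0.26, against 0.01 over all genes. ENG was at 241, 239 and 242 normalised reads in siSTAG2 and at 169, 174 and 155 in siC, and THY1 at 1519, 1446 and 1411 against 1058, 1041 and 1046. Both were higher in every siSTAG2 library. NT5E was at 69.9, 51.9 and 56.0 against 83.9, 81.7 and 97.9 normalised reads and fell by 0.57 (SE 0.16, adjusted p = 0.0139), a call lost without siC 3 (adjusted p = 0.0778) or siSTAG2 2 (0.0744). VIM was at 3636, 3571 and 3947 against 4890, 4523 and 5404 normalised reads and fell by 0.41 (SE 0.06, adjusted p = 2.7e-05, limma). CD44 (-0.34 ± 0.31, adjusted p = 0.501) and MCAM (-0.19 ± 0.27, adjusted p = 0.684) were not called, LOX lay under the minimum at 4.2 to 9.8 normalised reads, and VCAN held at most 3 reads in each library.

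**Figure D2:**
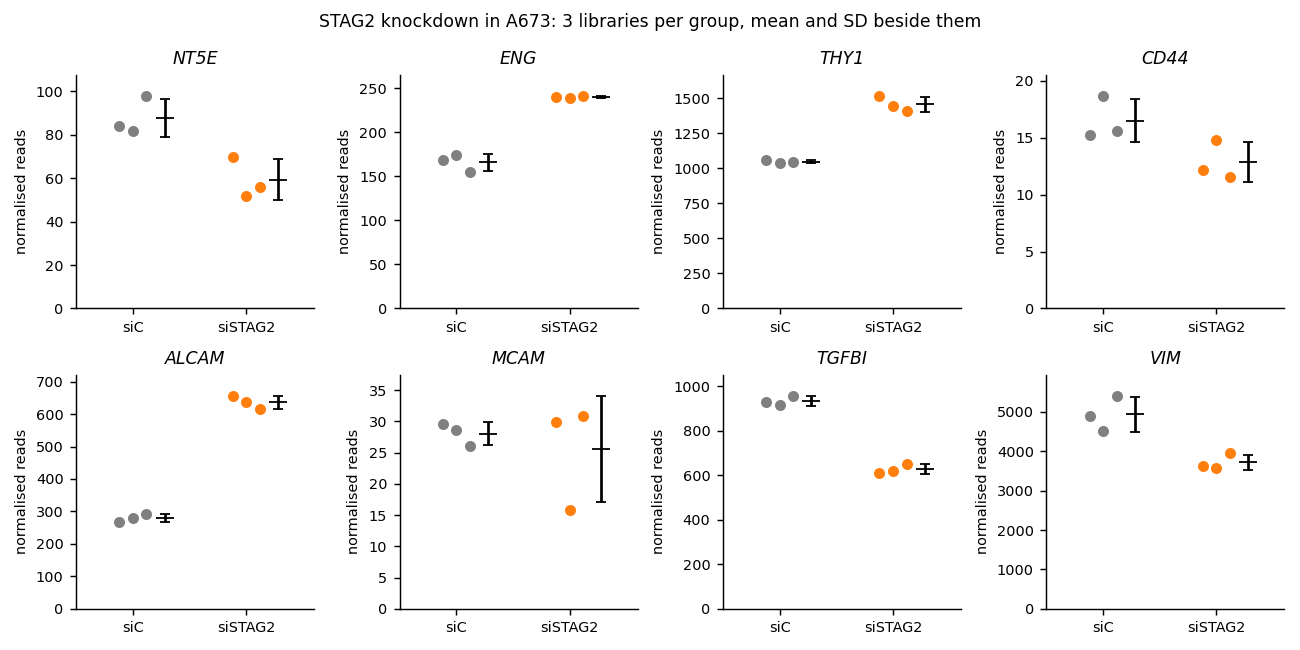
Normalised reads of the 8 measured members in 3 siC and 3 siSTAG2 libraries of A673 cells, on linear axes from 0; points are libraries, with the mean and SD beside them. ALCAM, ENG and THY1 are higher and TGFBI, NT5E and VIM lower in all 3 siSTAG2 libraries. CD44 is lower too (11.6 to 14.8 against 15.2 to 18.7) without being called, and MCAM overlaps.

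Of the members not picked there, ENG, CD44, ALCAM, MCAM, LOX and VIM had a negative log2 difference in cells without EZH2 or SUZ12. Few of these passed the test, and THY1 and VCAN had a positive difference. ALCAM fell in both genotypes, and ENG and VIM fell in SUZ12 KO. Beside the picked genes TGFBI and NT5E, 8 members were tested in a single fit of the 12 libraries of experiment 2. VCAN is among these 8 and in their medians. It passed the filter on low counts only through KO libraries in which it is high, so its test is a description. In EZH2 KO 1 was called lower and 0 higher, with 15.7% of 15130 genes called, 3.69% lower and 12% higher. In SUZ12 KO 3 were called lower and 0 higher, with 20.6% called, 5.87% lower and 14.7% higher. The median log2 difference over these 8 members was -0.93 in EZH2 KO and -1.12 in SUZ12 KO, against 0.04 and 0.01 over all genes. Both comparisons share their 3 control libraries with each other and with STAG2 KO of experiment 2.

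TGFBI, described with no test, was at 20.9, 19.7 and 97.3 CPM in the controls (the highest in the parental line). It was at 1.22, 1.45 and 1.11 CPM in EZH2 KO clones 1 to 3 and at 7.41, 0.217 and 0.218 CPM in SUZ12 KO clones 1 to 3, so that SUZ12 KO clone 1 was well above the other clones. The log2 difference of -4.09 in SUZ12 KO became -7.63 without that clone. NT5E was at 145, 158 and 65.0 CPM in the controls, at 16.8, 47.2 and 10.6 CPM in EZH2 KO and at 3.87, 3.76 and 4.73 CPM in SUZ12 KO. Every PRC2 KO clone was below every control, and the 3 SUZ12 KO clones lay below the 3 EZH2 KO clones. Over the 12 libraries of experiment 2, the genes whose log2 CPM followed NT5E most closely among 11005 genes were LYN (Pearson r = 0.966), FNDC3B (0.965) and ANXA2 (0.951), and those that followed TGFBI were POLD2 (0.882), ARID5B (0.880) and ATG4B (0.879), in libraries that share their genotype groups.

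ALCAM was at 110, 126 and 84.8 CPM in the controls, at 32.3, 39.9 and 27.1 CPM in EZH2 KO and at 21.8, 37.0 and 21.7 CPM in SUZ12 KO. All 6 PRC2 KO libraries were below all controls, and further below the STAG2 KO clones of the same experiment, which held 271 to 515 CPM. The log2 fold change was -1.67 ± 0.29 in EZH2 KO (adjusted p = 0.00284) and -1.96 ± 0.29 in SUZ12 KO (adjusted p = 0.000882, edgeR). The ALCAM calls were kept on leaving out any single library of these comparisons.

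ENG was at 57.5, 47.4 and 61.1 CPM in the controls, at 32.7, 35.8 and 33.9 CPM in EZH2 KO and at 23.1, 26.9 and 27.5 CPM in SUZ12 KO. The groups did not overlap in either comparison. ENG fell by 1.07 on the log2 scale in SUZ12 KO (SE 0.24, adjusted p = 0.00851) and differed by -0.67 ± 0.24 in EZH2 KO without being called (adjusted p = 0.0783, edgeR). VIM was at 1606, 1462 and 2081 CPM in the controls, at 867, 934 and 939 CPM in EZH2 KO and at 697, 619 and 908 CPM in SUZ12 KO, also without overlap. VIM fell by 1.18 in SUZ12 KO (SE 0.33, adjusted p = 0.0263), a call lost without WT clone 1 (0.0566), the parental library (0.0850), or SUZ12 KO clone 1 (0.0846) or 2 (0.105), and differed by -0.88 ± 0.33 in EZH2 KO (adjusted p = 0.0945, edgeR).

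VCAN went the other way. It held 2, 3 and 0 counts in the controls, 91, 45 and 44 counts in EZH2 KO and 111, 32 and 60 counts in SUZ12 KO. With the controls set to the floor of 3 counts per library, the mean was at least 17.6-fold higher in EZH2 KO and at least 19.6-fold higher in SUZ12 KO. The fitted test did not call VCAN (adjusted p = 0.0677 and 0.0505, edgeR), and it passed the filter on low counts only through the KO libraries and STAG2 KO clone 5. MCAM (-1.19 ± 0.45 and -0.88 ± 0.44), CD44 (-0.98 ± 0.79 and -1.59 ± 0.80) and LOX (-1.37 ± 0.75 and -2.21 ± 0.78) had negative log2 differences in EZH2 KO and SUZ12 KO that were not called (adjusted p = 0.065 to 0.43, edgeR). THY1 did not follow, at 164, 174 and 319 CPM in EZH2 KO and 165, 151 and 257 CPM in SUZ12 KO against 164, 140 and 192 CPM.

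With only the 6 libraries of each comparison in the fit, which also changes the genes that pass the filter, more members were called, and the cause was not tested. In EZH2 KO 5 were called lower (ENG, CD44, ALCAM, MCAM and VIM), with 24% of 14262 genes called, 7.83% lower and 16.2% higher. In SUZ12 KO 6 were called lower (LOX in addition to these), with 30.4% of 14397 genes called, 10.5% lower and 19.9% higher. VCAN passed the filter there only through the KO libraries in which it is high, so it is not counted. THY1 was called in neither fit (adjusted p = 0.257 and 0.369 with 6 libraries, edgeR).

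Set directly against each other, EZH2 KO and SUZ12 KO had 0 of 8 tested members called by edgeR, with 0.00661% of 15130 genes called (1 gene, EZH2 itself), 629 genes at an unadjusted p under 0.05 and 20 genes called by DESeq2. The log2 differences had large standard errors, such as 0.40 ± 0.24 for ENG, 0.61 ± 0.79 for CD44, 0.84 ± 0.76 for LOX and -0.16 ± 1.24 for VCAN.

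In STAG1 KO cells CD44 and NT5E rose, VIM rose a little and MCAM fell. Of 9 members tested, 3 were called higher and 1 lower, with 5.27% of 14373 genes called, 2.77% higher and 2.5% lower, and a median log2 difference of 0.31 against 0.00 over all genes. NT5E was at 96.0, 194 and 76.3 CPM in the libraries labelled STAG1 KO 1, 5 and 7 against 23.6 (WT clone) and 20.1 CPM (parental). CD44 was at 30.8, 29.4 and 11.9 CPM against 4.55 and 1.74 CPM. Both were above both controls in each library, also in library 1, whose STAG1 mRNA was at the control level. The unedited controls of experiments 1 and 2 spanned 30.0 to 158 CPM for NT5E and 2.52 to 35.8 CPM for CD44. Of the STAG1 KO values of both genes, only the 194 CPM of NT5E lay outside these ranges. The log2 fold change was 2.47 ± 0.43 for NT5E (adjusted p = 0.0373) and 2.92 ± 0.59 for CD44 (adjusted p = 0.0491, edgeR).

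MCAM was at 15.8, 15.1 and 16.7 CPM against 34.1 and 30.1 CPM and fell by 1.03 on the log2 scale (SE 0.13, adjusted p = 0.0239, edgeR). VIM was at 1821, 1996 and 1821 CPM against 1353 and 1380 CPM and rose by 0.44 ± 0.09 (adjusted p = 0.0496). The groups did not overlap for either. Without the WT clone or without the parental library no member was called (adjusted p = 0.15 to 0.369 for these 4), the lone control then being assumed to vary like the KO libraries. CD44 was lost also without STAG1 KO 1 (0.0555) or 5 (0.0855), and VIM without 5 (0.0882) or 7 (0.0940). THY1 was called without STAG1 KO 1 (-0.59, adjusted p = 0.0446, edgeR). TGFBI was at 133, 192 and 111 CPM against 35.8 CPM in the WT clone and 266 CPM in the parental line, so that no difference could be told from the spread of the controls (-0.07 ± 0.73, adjusted p = 0.969), and the sign turned without the parental library (2.01). ALCAM (-0.75 ± 0.33), ENG (0.31 ± 0.13), THY1 (-0.30 ± 0.26) and LOX (1.20 ± 0.41) were not called (adjusted p = 0.14 to 0.519, edgeR), and VCAN held at most 7 counts outside the parental library and was not tested.

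**Figure D3:**
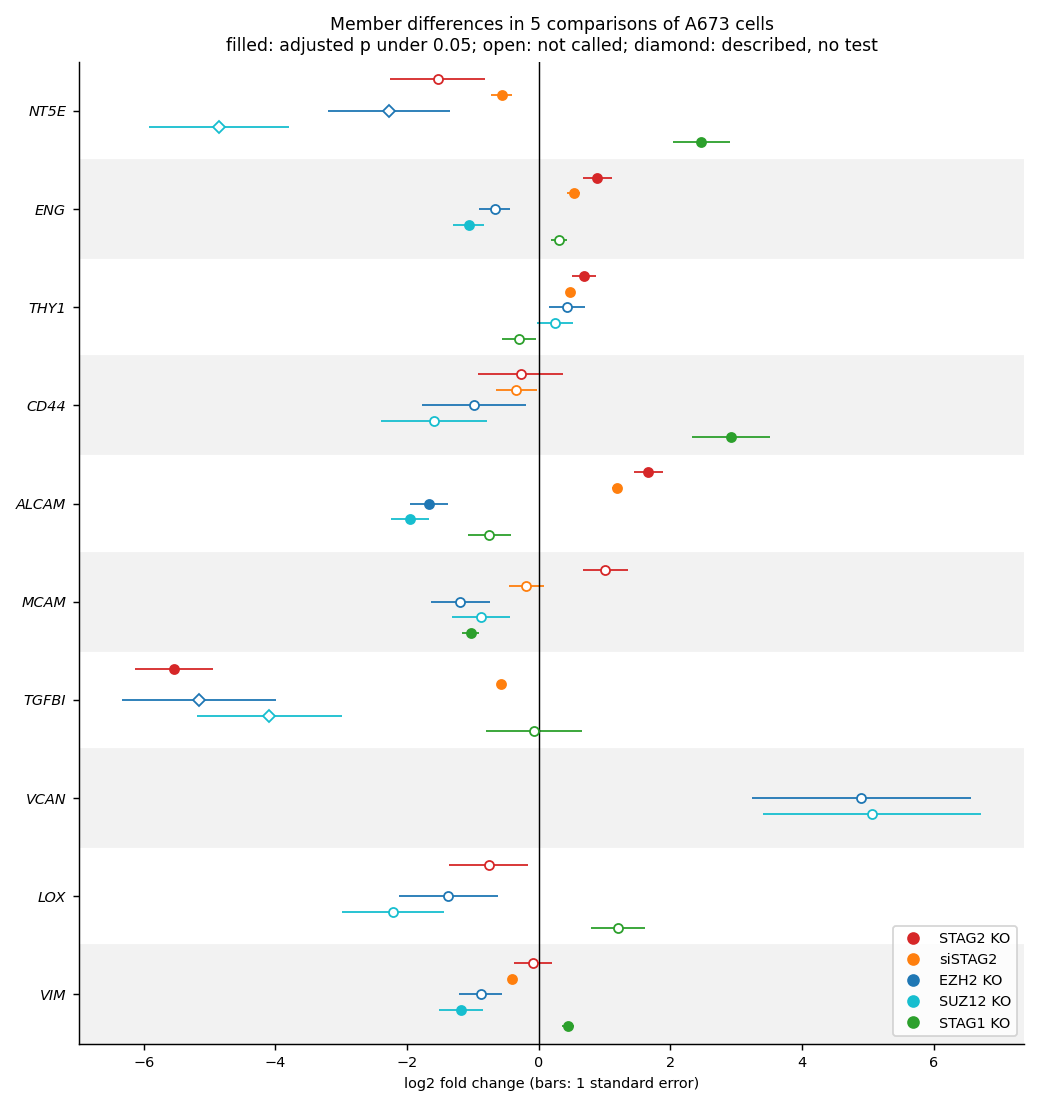
Log2 fold change of each member in 5 comparisons of A673 cells, with bars of 1 standard error; filled points have an adjusted p under 0.05, open points do not, and diamonds mark NT5E and TGFBI in PRC2 KO, which have no test. ALCAM lies to the right of 0 for STAG2 KO (1.67) and siSTAG2 (1.19) and to the left for EZH2 KO (-1.67) and SUZ12 KO (-1.96); VCAN is shown where it was tested.

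A fit of 16 libraries then compared what loss of STAG2 and loss of STAG1 each changed. The difference was called for TGFBI (-5.52 ± 1.08, adjusted p = 0.00849), ALCAM (2.38 ± 0.42, adjusted p = 0.00459) and MCAM (2.01 ± 0.55, adjusted p = 0.0453), 2 of 9 members higher and 1 lower with 6.11% of 14696 genes called (2.36% higher, 3.75% lower). ALCAM and MCAM were higher and TGFBI lower with STAG2 loss than with STAG1 loss. TGFBI and NT5E were picked against controls of experiment 2 that are in this fit, so their values and calls here are a description. The TGFBI and ALCAM calls were kept on leaving out any library, and the MCAM call was lost for each library but STAG2 KO clone 5 (adjusted p = 0.0520 to 0.174), and when the WT clone pair of experiment 1 was summed (0.0711). NT5E (-4.03 ± 1.23, adjusted p = 0.0709) and CD44 (-3.23 ± 1.18, adjusted p = 0.138) were not called, and both were without STAG2 KO clone 5 of experiment 2 (NT5E -3.77, adjusted p = 0.0121, and CD44 -2.93, adjusted p = 0.0125, edgeR). THY1 was then called too (1.07, adjusted p = 0.0462), and NT5E also without STAG2 KO clone 2 (-4.98, adjusted p = 0.00843).

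Several members already differed between the WT clone, from which the KO clones were made, and the parental line. With the experiment as a term, NT5E (0.79 ± 0.15, adjusted p = 0.0267), CD44 (1.09 ± 0.15, adjusted p = 0.00643) and LOX (0.86 ± 0.14, adjusted p = 0.0164) were higher and TGFBI (-1.81 ± 0.37, adjusted p = 0.0362) lower in the WT clone, so that 3 of 9 members were higher and 1 lower with 2.72% of 14167 genes called, 1.76% higher and 0.96% lower (edgeR). TGFBI was at 66.4 and 64.1 CPM against 81.6 CPM in experiment 1, at 20.9 and 19.7 against 97.3 CPM in experiment 2 and at 35.8 against 266 CPM in experiment 3, lower in the WT clone each time. CD44 was at 5.82 and 6.65 against 2.52 CPM, at 34.7 and 35.8 against 19.7 CPM and at 4.55 against 1.74 CPM, higher each time. The CD44 call was kept on leaving out any library. The calls of NT5E, LOX and TGFBI were each lost without any 1 of the 3 libraries of experiment 2 (adjusted p = 0.067 to 0.194), that of NT5E also without WT clone a of experiment 1 (0.0522), and that of TGFBI without either library of experiment 3 (0.0590 and 0.0614). Without either library of experiment 3, ALCAM (0.57 and 0.58, adjusted p = 0.0165 and 0.0167) and VIM (-0.39 both times, adjusted p = 0.0383 and 0.0393) were called as well.

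The pairs have 1 library per arm and no test; intervals are exact 95% intervals of the ratio from counting error only. Values are for the library without STAG2 against the library with it. In SK-N-MC, 5 of 10 members were over 2-fold lower and 0 over 2-fold higher, with 11.3% and 10.3% of 16413 genes past that fold. NT5E fell from 474 to 27 counts, 16.2-fold lower after scaling (interval 10.99 to 24.8). VCAN fell from 281 to 21 counts, 12.3-fold lower (7.92 to 20.2). TGFBI fell from 250 to 40 counts, 5.76-fold lower (4.12 to 8.26). ENG fell from 255 to 131 counts, 1.80-fold lower (1.45 to 2.23). VIM was 2.29-fold lower (2.21 to 2.37) and ALCAM 1.499-fold higher (1.43 to 1.57), with 4043 counts in STAG2 KO and 2925 in WT. CD44, also among the 5 over 2-fold lower, held only 3 and 11 counts. Its ratio of 0.296 has an interval of 0.0530 to 1.12 that includes no change. THY1, at 33 and 53 counts, was far below its level in A673.

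In A4573, 4 of 10 members were over 2-fold lower and 0 over 2-fold higher, with 14.5% and 7.49% of 16124 genes past that fold. ENG held 21 counts without STAG2 and 101 with the knock-in, 4.75-fold lower (interval 2.94 to 7.999), and TGFBI 6 and 29 counts, 4.77-fold lower (1.95 to 14.1). ALCAM, at 2300 and 5309 counts, was 2.28-fold lower (2.17 to 2.39) and THY1, at 3445 and 7089 counts, 2.03-fold lower (1.95 to 2.12). ALCAM, ENG and THY1 were thus lower in the A4573 cells without STAG2, and ENG also in SK-N-MC, the opposite direction to STAG2 KO in A673, and TGFBI was lower in both pairs as in A673. VIM was 1.97-fold higher (1.91 to 2.02). NT5E was low in both arms, with 19 and 20 counts.

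**Figure D4:**
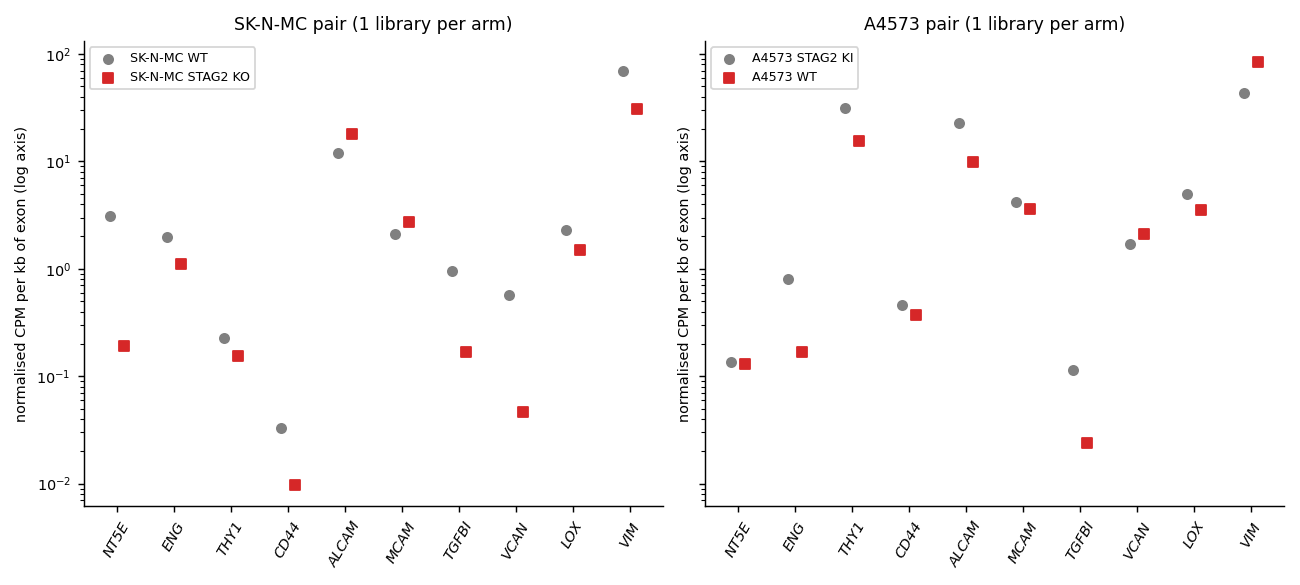
Level of the 10 members in the SK-N-MC and A4573 pairs, as normalised CPM per kilobase of exon on a log axis; each symbol is 1 library, grey circles with STAG2 and red squares without. NT5E, VCAN and TGFBI lie lower without STAG2 in SK-N-MC, and TGFBI, ENG and ALCAM in A4573.

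Other genes of the mesenchymal programme were counted in lists, and each gene named from them passed the test in the comparison given. The share of all genes called was 12.4% in STAG2 KO, 20.5% in the knockdown, 15.7% in EZH2 KO, 20.6% in SUZ12 KO and 5.27% in STAG1 KO. More genes were tested in EZH2 KO and SUZ12 KO than in STAG2 KO, such as 24 against 21 stromal surface genes and 16 against 13 transcription factors. Some may have passed the filter on low counts only through KO libraries in which they are high. The counts of genes called higher and the medians of the lists in PRC2 KO are therefore a description. Of 30 matrix genes, 29 were tested in STAG2 KO and 15 were lower and 0 higher, with a median log2 difference of -1.37. They included FBLN5, an elastic fibre protein (-4.39 ± 0.41, adjusted p = 0.0001, edgeR), and COL1A2, a chain of type I collagen (-2.97 ± 0.60, adjusted p = 0.0086). In the knockdown 20 of 24 tested matrix genes were lower and 0 higher, with a median of -0.71 and with FBLN5 at 77.4 ± 17.3 against 401 ± 29.5 normalised reads (SD, n = 3). In SUZ12 KO 14 of 30 were lower and 2 higher (COL6A3 and ELN), with a median of -1.58, and in EZH2 KO 8 were lower and the same 2 higher, with a median of -1.01. COL3A1 was at 28.7 ± 14.2 CPM in SUZ12 KO and 517 ± 235 CPM in its controls (SD, n = 3). In STAG1 KO 11 of 30 matrix genes were higher and 1 lower, with a median of 0.72, though 0 genes of the whole table were called there without the WT clone or without the parental library, and COL1A1 was at 688 ± 353 CPM (SD, n = 3) against 70.3 ± 23.2 CPM (SD, n = 2). Among unedited cells, 6 of 30 matrix genes were higher and 0 lower in the WT clone than in the parental line, with a median of 0.46 and 2.72% of all genes called.

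Among 25 other genes listed as stromal surface markers, 2 were higher and 5 lower of 21 tested in STAG2 KO (median -0.24). In the knockdown 0 were higher and 9 lower of 14 (-0.26), and in STAG1 KO 4 were higher and 1 lower of 22 (0.39). In EZH2 KO 8 were higher and 1 lower of 24 (0.33), and in SUZ12 KO 7 were higher and 4 lower of 24 (0.52). These PRC2 KO counts carry the limit of the filter given above. The list also holds NES, which is not a surface protein and is among the genes called in STAG2 KO, the knockdown and STAG1 KO. NES, the filament protein nestin of progenitor cells, fell in STAG2 KO from 153 ± 50.2 (SD, n = 6) to 9.56 ± 4.19 CPM (SD, n = 5) and rose in STAG1 KO from 65.2 ± 1.01 (SD, n = 2) to 203 ± 40.9 CPM (SD, n = 3). The tetraspanin CD9 (5.01 ± 0.68 in EZH2 KO, 5.45 ± 0.69 in SUZ12 KO) and the protein C receptor PROCR (3.48 ± 0.52 and 3.52 ± 0.52) rose in PRC2 KO, and N-cadherin CDH2 fell (-3.18 ± 0.38 and -3.65 ± 0.39). PROCR rose in STAG2 KO too (1.93 ± 0.31). Unlike NES, PDPN fell in both STAG2 KO (-5.60 ± 0.81) and STAG1 KO (-2.82 ± 0.43), and CD63 rose in STAG1 KO (0.75 ± 0.11).

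The cytoskeletal list of 17 genes had 8 lower and 0 higher of 15 tested in SUZ12 KO, 3 and 0 in EZH2 KO, 1 and 0 in STAG2 KO, 7 and 0 in the knockdown, and 0 lower and 5 higher in STAG1 KO. TPM1, a tropomyosin, was at 16.4 ± 2.24 CPM in SUZ12 KO and at 133 ± 38.4 CPM in controls (SD, n = 3). Of 16 mesenchymal transcription factors, 4 were higher and 5 lower of 16 in SUZ12 KO, 4 and 3 of 16 in EZH2 KO, 1 and 3 of 13 in STAG2 KO, 1 and 2 of 11 in the knockdown and 0 and 1 of 13 in STAG1 KO. ZEB1, a repressor of epithelial genes, rose in EZH2 KO (2.73 ± 0.82) and SUZ12 KO (3.03 ± 0.82) and fell in STAG1 KO by 2.45 (SE 0.45).

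**Figure D5:**
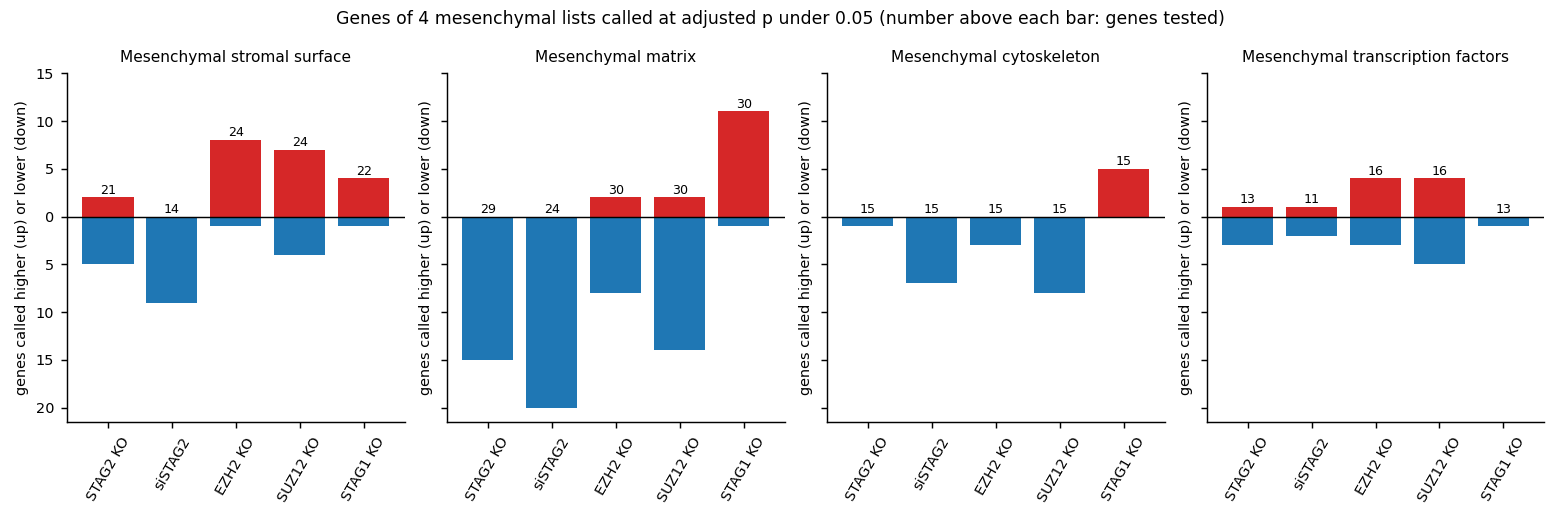
Number of genes of 4 mesenchymal lists called higher (upward bars) or lower (downward bars) at an adjusted p under 0.05 in 5 comparisons of A673 cells; the number above each bar is the genes tested. Matrix genes were called lower in STAG2 KO (15 of 29) and siSTAG2 (20 of 24) and higher in STAG1 KO (11 of 30).

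The genes that work with single members gave mixed counts. In the adenosine pathway of NT5E, 0 of 7 tested genes were higher and 2 lower in STAG2 KO, 3 of 10 higher and 2 lower in EZH2 KO, 3 higher and 1 lower in SUZ12 KO, 0 of 9 called in STAG1 KO, and 1 of 5 higher in the knockdown. The adenosine receptor ADORA2B fell in STAG2 KO (-2.31 ± 0.29) and EZH2 KO (-1.31 ± 0.33), and DPP4, which anchors adenosine deaminase, rose from 0.322 ± 0.162 to 15.8 ± 1.34 CPM in EZH2 KO (SD, n = 3). With controls this low, DPP4 may have passed the filter on low counts only through KO libraries in which it is high. Its rise and its place in the counts are therefore a description. Among 23 TGF-beta and BMP receptors, ligands and SMADs around ENG, 1 of 21 was higher and 2 lower in STAG2 KO, 3 of 22 higher and 2 lower in EZH2 KO, 3 of 22 higher and 3 lower in SUZ12 KO, 3 of 22 higher and 0 lower in STAG1 KO and 0 of 21 higher and 6 lower in the knockdown. TGFB1 rose in EZH2 KO (194 ± 28.6 against 98.6 ± 16.6 CPM, SD, n = 3), SUZ12 KO (1.02 ± 0.22 on the log2 scale) and STAG1 KO (1.02 ± 0.17), and its receptor TGFBR1 rose by 1.92 ± 0.44, 1.73 ± 0.44 and 2.38 ± 0.22. SMAD6 fell in EZH2 KO (-1.49 ± 0.21) and SUZ12 KO (-1.66 ± 0.21), as did BMPR2 (-0.56 ± 0.14 and -0.58 ± 0.14). In the knockdown TGFBR2 (-0.92 ± 0.15) and SMAD3 (-0.40 ± 0.08) fell.

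Of the hyaluronan and lectican genes around CD44 and VCAN, 7 could be tested in STAG2 KO, where 2 were higher and 1 lower. HAPLN1, which links proteoglycans such as versican to hyaluronan, rose from 0.796 ± 0.244 (SD, n = 6) to 13.5 ± 2.87 CPM (SD, n = 5). The hyaluronan-binding TNFAIP6 fell in STAG2 KO (-1.72 ± 0.31) and in the knockdown (-1.05 ± 0.07). In EZH2 KO and SUZ12 KO 2 of 8 were higher and 0 lower, in STAG1 KO 1 of 7 was lower, and in the knockdown 1 of 5 was lower. Of 6 intermediate filaments around VIM, 1 was higher and 2 lower in STAG2 KO, and 0 were higher and 2 lower in EZH2 KO and in SUZ12 KO. NEFL and SYNM fell in STAG2 KO, EZH2 KO and SUZ12 KO (-1.99 to -3.73 on the log2 scale), while in the knockdown NEFL rose by 0.72 ± 0.10 and NEFM by 1.12 ± 0.07, with 4 of 5 higher and 1 lower. In STAG1 KO 0 of 6 were called.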

How the data were processed

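RNA of 32 libraries of Ewing sarcoma cell lines was primed with oligo-dT and made by the authors into libraries that keep no strand, sequenced from 1 end and aligned to hg38 with TopHat2; per the submitters' processing notes, tools were TopHat2 2.0.0, Bowtie 0.12.7, SAMtools 0.1.16, FastQC and DESeq2, and the counting program and annotation are not given in the sources used here. The authors deposited counts of reads per gene symbol for 26 libraries. For the knockdown they deposited a signal, read counts divided by 1 factor per library; 100% of its values came back as whole reads (tolerance 1e-06), and 0 columns were left out. Libraries were grouped by labelled genotype; single columns of STAG2 KO in experiment 1 and of STAG1 KO could be matched only to their group.

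Counts were tested in R 4.3.3 with edgeR 4.0.16 (TMM, filterByExpr by genotype, quasi-likelihood test). Where experiments were joined the experiment was a covariate, with Benjamini-Hochberg adjustment over all genes tested. Knockdown values were tested with limma 3.58.1 on log2(value + 1) for genes with a mean of at least 10. Pairs were set side by side on the log2 CPM scale (prior count 2). DESeq2 1.42.0 was an alternative. Tests were tried on simulated data. A group whose libraries all held 3 counts or fewer was set to that floor; intervals and the floor cover counting error only, since reads carry no molecular identifiers.

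The members, gene lists and tests were chosen with earlier results of these data known. From the lists, up to 2 called genes with the highest and 2 with the lowest fold change were named, provided that their mean over the libraries compared reached 5 CPM (50 normalised reads in the knockdown) and the groups did not overlap. Coordinates and exon lengths are of GENCODE 44 (GRCh38) and upstream windows of RefSeq. Exons of ENG, THY1, CD44, MCAM, VCAN, LOX and VIM overlap a gene on the opposite strand, whose reads cannot be told apart here. Knockdown libraries with the same replicate number had nearly uncorrelated deviations (0.0040 to 0.0372) and were treated as unpaired. Alternatives were other scalings, filters, pseudocounts, prior counts and control sets, DESeq2, single experiments, recovered reads, the replicate block and leaving out each library; the fits that sum the WT clone pair of experiment 1 were added after seeing the data.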

Additional observations from a re-analysis of the deposited data

Results flagged for a closer look

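Among 20 groups of member levels tested for a sample far from the others (Dixon's gap at 95%), 3 held one, and chance flags about 1 in 20 groups. NT5E was at 150 CPM in STAG2 KO clone 2 of experiment 2, far above the other 4 STAG2 KO libraries. TGFBI was at 0.239 CPM in STAG2 KO 5 of experiment 1, below the others. VCAN was at 5.62 CPM in STAG2 KO clone 5 of experiment 2, above the others.

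The effect of STAG2 KO differed from that of STAG1 KO in a test of the difference itself for ALCAM (2.38 on the log2 scale), MCAM (2.01) and TGFBI (-5.52), as edgeR's quasi-likelihood test called them. The TGFBI value is a description, since the controls of experiment 2, against which it was picked, are in that fit.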

How the results depend on the processing

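Over alternatives that left out no single library, 399 of 436 log2 differences of members kept their direction and their side of the threshold, 7 lost a call, 26 gained one, 3 reversed and 1 moved. On leaving out 1 library in turn, 593 of 687 did, 62 lost a call, 13 gained one, 18 reversed and 1 moved. The cause was not tested, except that single experiments and 6-library fits hold fewer libraries.

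The number of members called in STAG2 KO (4 as reported) was 2 in experiment 2 alone and 2 when both unedited clone libraries of experiment 1 were added into 1 (ENG and THY1 lost), an alternative chosen after seeing the data, and 2 to 5 on leaving out each library. TGFBI, a description there, is among the 4, and among the 3 of STAG2 KO against STAG1 KO below. Any call of NT5E in both comparisons is a description too where the controls of experiment 2 are in the fit. EZH2 KO (1 as reported) had 5 members called with DESeq2 and 6 with only the 6 libraries compared. The latter include VCAN, which passed the filter there only through the KO libraries. SUZ12 KO (3) had 5 without a filter on low counts, 5 with DESeq2 and 7 with only the 6 libraries, VCAN included both times although it passed the filter only through the KO libraries. STAG1 KO (4) had 0 to 4 on leaving out each library. The difference between STAG2 KO and STAG1 KO (3) had 5 with DESeq2 and 2 to 6 on leaving out each library, the WT clone comparison (4) 1 to 5, and the difference between experiments (0) 1 with DESeq2 and 0 to 1 on leaving out each library.

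Counts over all genes moved by over 1.5 times in STAG2 KO (1687 genes) to 3663 in experiment 1 alone and 494 in experiment 2 alone (703 in experiment 1 alone with its unedited clone libraries added into 1, which also took the WT clone comparison from 385 to 185), and in EZH2 KO (2377) to 1441 with the WT clone as the only control. With DESeq2, STAG1 KO (757) went to 1914, the difference between STAG2 KO and STAG1 KO (898) to 1546, the WT clone comparison (385) to 630 (741 with no filter), the difference between experiments (0) to 2222 and EZH2 KO against SUZ12 KO (1) to 20 (5 with no filter, 0 with only the 6 libraries). Leaving out each library gave 1053 to 4048 genes in STAG2 KO, 1169 to 1760 in EZH2 KO, 1874 to 3238 in SUZ12 KO, 0 to 1310 in STAG1 KO, 195 to 1860 for STAG2 KO against STAG1 KO, 98 to 953 in the WT clone comparison, 0 to 1440 between experiments and 1 to 2 for EZH2 KO against SUZ12 KO.

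Signs that turned belonged to log2 differences that were not called. VIM in STAG2 KO was 0.50 in experiment 1 alone (0.43 with its clone libraries added), 0.035 with the WT clone as the only control and -0.23 to 0.15 on leaving out each library (0.02 without the parental library of experiment 2), and CD44 was -0.67 to 0.035. The ranges on leaving out each library were -0.043 to 0.38 for THY1 in SUZ12 KO, -0.88 to 2.01 for TGFBI in STAG1 KO (0.0047 and 0.09 without KO 1 or 7), -0.35 to 0.12 for MCAM in siSTAG2 and -0.16 to 0.021 for ENG in the WT clone comparison. Between experiments they were -0.29 to 2.07 for NT5E and -0.56 to 0.79 for CD44. For EZH2 KO against SUZ12 KO they were -0.18 to 0.45 for THY1, -1.62 to 2.46 for TGFBI and -0.54 to 0.36 for VCAN (0.04 without EZH2 KO 3).

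With the replicate block the knockdown had 6 members and 2881 genes called, against 6 and 2476 without it, and it changed no call of a member. Deviations of libraries with the same number had correlations of 0.0257, 0.0372 and 0.0040. With 3 libraries per group these values cannot settle whether the libraries were paired. Low counts limit VCAN in A673 and CD44, ENG and TGFBI in the pairs.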
